A study of Mus musculus with 4 samples.

Results

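The genes described here encode proteins of the lysosome: membrane proteins, hydrolases, their activators and lipid carriers, progranulin and the transcription factor Tfeb. They were chosen by name, as 31 symbols with the cathepsins left out, and all 31 were found among the 18804 genes of the deposited table. RNA-seq was run on ILC1s (type 1 innate lymphoid cells), cytotoxic lymphocytes that reside in tissue, from the liver of mice 5 to 8 weeks old at homeostasis. Both groups share that age, tissue and state. One group is labelled Cd200r knockout (replicates 1 and 2) and the other WT (replicates 1 and 3). Cd200r encodes CD200R, an inhibitory receptor. The sources used here give neither the allele, the strain and the sorting gate nor whether a library holds 1 mouse or a pool. The spread behind each p-value therefore comes from 4 libraries, in part from other genes of these libraries, and could be partly technical.

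Values are FPKM, that is counted fragments divided by gene length and by the library's total, so levels can be compared between genes. The depth inferred from the steps between low values was 38982299 to 41167348 counted reads per library, at which 1 FPKM is 39.0 to 41.2 reads per kilobase. Cd200r1 measured 111 and 104 FPKM in knockout replicates 1 and 2 and 162 and 173 FPKM in WT replicates 1 and 3, so the transcript of the targeted gene was lower in the libraries labelled knockout but not absent. Of 11 ILC1 markers listed, Ncr1, Klrb1c, Tbx21 and Cxcr6 were at 253 FPKM or more in every library, Itgae was below 1 FPKM in all 4 and Zfp683 had no row. None of the 9 tested ILC1 markers passed limma's test between the genotypes, 8 had a negative log2 fold change (knockout minus WT, median −0.10), and the 3 with an unadjusted p below 0.05, Ncr1, Itga1 and Xcl1, were among those. Those 3 are a share of 33.3%, beside 15.5% of all genes tested. The ILC1 markers summed to 0.895 and 0.860 of the WT mean in knockout.

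Lysosomes are acidic organelles in which soluble hydrolases break down glycans, lipids and proteins. Heavily glycosylated membrane proteins line the inner face of the organelle, and a proton pump, the V-ATPase, keeps it acidic. Most hydrolases reach it by a mannose 6-phosphate tag. In cytotoxic lymphocytes the granules that hold perforin and granzymes are specialised lysosomes, and they carry the same membrane proteins. Tfeb belongs to the MiT family of transcription factors, which bind E-box sequences in the promoters of many lysosomal genes.

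Of the lysosomal genes, Lamp1 rose in knockout, and the other 29 tested did not pass. The groups were compared with limma, a linear model fitted to log2(FPKM + 1) over the 9476 genes whose mean reached 1 FPKM, and a gene passed at a Benjamini-Hochberg adjusted p below 0.05. Of the 31 lysosomal genes, 30 met that mean. Ids, the sulfatase that starts heparan and dermatan sulfate breakdown, did not, at 0.754 and 1.08 FPKM in knockout and 0.691 and 1.02 FPKM in WT. The 1 gene called of 30 is a share of 3.33%, and over all genes 316 of 9476 passed, which is 3.33%, with 2.40% higher and 0.939% lower. The median log2 fold change (knockout minus WT) of the 30 genes was 0.011, beside 0.0033 over all genes, and 16 were positive and 14 negative. Their median size of difference was 0.13 on the log2(FPKM + 1) scale, beside 0.16 over all genes.

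By level, Laptm5 stood far above the rest. It encodes a lysosomal membrane protein of blood cells that routes receptors to degradation. It measured 1027 and 819 FPKM in knockout and 982 and 974 FPKM in WT. The lower knockout value lay below both WT values and the higher one above them. Its log2 fold change was −0.09 (SE 0.10, adjusted p = 0.735 with limma). Next came Lamp1, then Psap, Ppt1, Hexa and Npc2 with means from 69.8 to 81.2 FPKM, whose values overlapped along the order. In all, 6 genes had a mean over 50 FPKM, 14 a mean of 10 to 50 and 10 a mean of 1 to 10. The median of the 31 genes was 21.6 FPKM, beside 10.4 FPKM over all genes tested. Of the 30 neighbouring pairs in this order, 7 had every value of the higher gene above every value of the lower, and the other 23 overlapped.

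**Figure D1:**
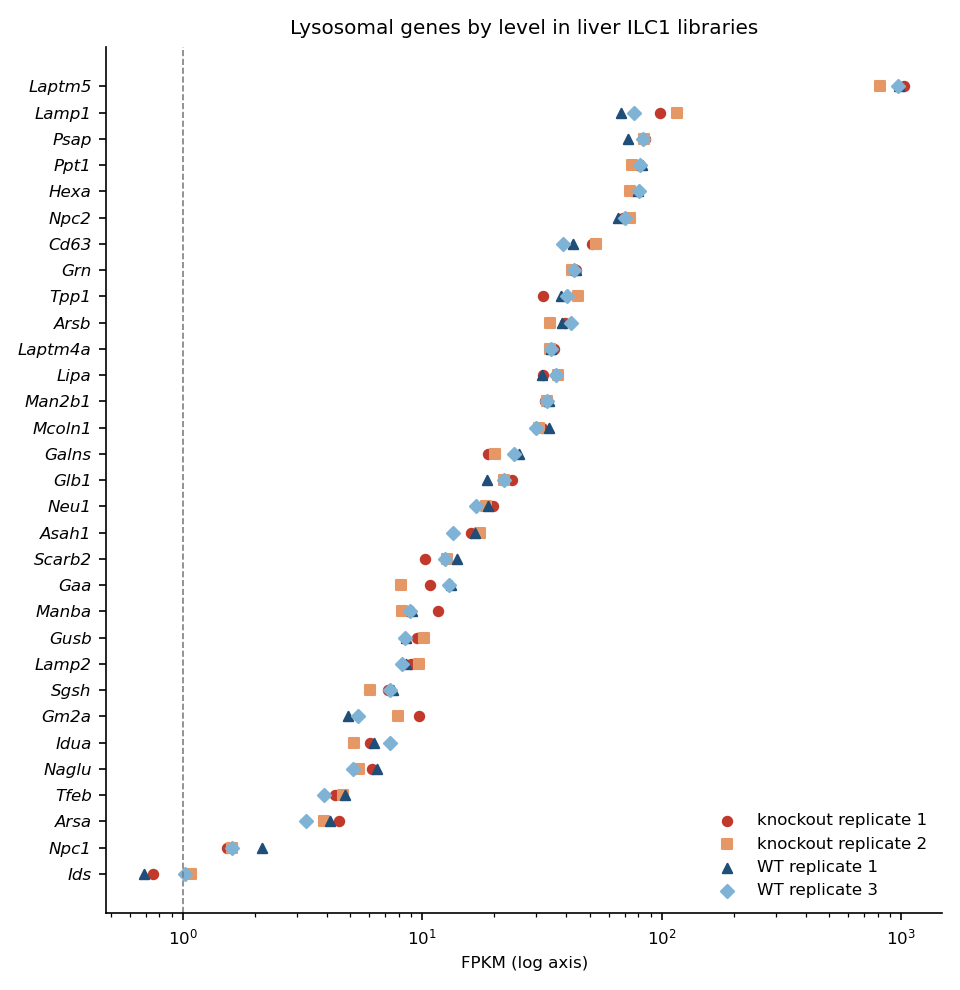
FPKM (log axis) of the 31 lysosomal genes in the 4 libraries, ordered by mean; the dashed line marks 1 FPKM. Laptm5 lies at 819 to 1027 FPKM and every other gene at 116 FPKM or below. The knockout points lie right of the WT points for 7 genes, among them Lamp1, Cd63 and Gm2a, and left of them for 8. Over all genes tested, the knockout values lay above WT in 24.3% and below in 21.7%, so these counts are near the background.

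Among the membrane proteins, Lamp1 encodes a major glycoprotein of the lysosomal membrane, whose appearance at the cell surface is used as a sign of degranulation. The gene (Entrez 16783) lies on chromosome 8 of GRCm38, from 13159161 to 13175338. It measured 98.6 and 116 FPKM in knockout and 67.5 and 76.6 FPKM in WT. Both knockout libraries lay above both WT libraries, and knockout replicate 2 was the highest. The fold was 1.49 by group means and the log2 fold change 0.57 (SE 0.11, 95% interval 0.31 to 0.82, adjusted p = 0.0218 with limma). The call ended without knockout replicate 2 (0.45, adjusted p = 0.0691) and without WT replicate 1 (0.48, adjusted p = 0.126), and the direction stayed. It also ended without the mean-variance trend (adjusted p = 0.188) and with no filter on low genes (adjusted p = 0.343).

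Lamp2 and Cd63 also lay higher in both knockout libraries, without passing the test. Lamp2, the close relative of Lamp1, measured 8.94 and 9.74 FPKM in knockout and 8.57 and 8.24 FPKM in WT. Its log2 fold change was 0.14 (SE 0.17, 95% interval −0.24 to 0.51, adjusted p = 0.772 with limma). Lamp1 transcripts thus exceeded Lamp2 transcripts by 11.0 and 11.9 times in knockout and by 7.87 and 9.30 times in WT. Cd63, a tetraspanin of lysosomes and cytotoxic granules, measured 51.1 and 52.9 FPKM in knockout and 42.7 and 38.8 FPKM in WT. Its groups did not overlap either, but the log2 fold change of 0.35 (SE 0.11, 95% interval 0.10 to 0.59) did not pass (adjusted p = 0.145 with limma, and 0.123 to 0.520 over 12 alternatives).

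The other 4 membrane proteins had log2 fold changes between −0.19 and 0.02. Scarb2, which carries glucocerebrosidase to the lysosome, had −0.19 (SE 0.17), and Npc1, the cholesterol exporter, −0.16 (SE 0.22) at 1.54 to 2.14 FPKM. Mcoln1, a calcium channel of the organelle, had −0.03 (SE 0.12) and Laptm4a 0.02 (SE 0.11). Together with Laptm5, 4 of the 8 membrane proteins were positive and 4 negative.

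The E-box that MiT factors bind was looked up in the promoters of these genes. The sequence itself did not enter their choice. It is known from promoters of many lysosomal genes, however, so a higher share here is no independent result. RefSeq promoter windows of GRCm38.p6, 250 bases before to 50 after the gene start, were matched for 28 of the 31 genes. The sequence CACGTG, which reads the same on both strands, was present in 7 of the 28 (25.0%), in 11.9% of 7620 tested genes and in 8.09% of 27025 genes with a window. The longer GTCACGTG, which contains it, was present on either strand in 6 (21.4%), in 5.18% of tested genes and in 2.55% of all. TCACGTGA, which also contains it, was present in Mcoln1 only (3.57%), against 2.56% and 1.12%. Lamp1 held 4 copies of CACGTG, which begin 61, 45, 28 and 15 bases before the start. The last 70 bases before the Lamp1 start (chr8:13159091-13159160, plus strand) are shown for that cluster, with each CACGTG in capitals, and the other 6 genes by a window of 30 bases or fewer around the motif.
Lamp1: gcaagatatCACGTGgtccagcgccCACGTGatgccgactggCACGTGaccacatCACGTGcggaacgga
Mcoln1 (chr8:3500462-3500491, plus strand): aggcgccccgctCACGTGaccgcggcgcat
Glb1 (chr9:114401018-114401047, plus strand): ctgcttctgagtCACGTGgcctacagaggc
Naglu (chr11:101070009-101070038, plus strand): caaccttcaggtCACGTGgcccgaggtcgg
Gaa (chr11:119267811-119267840, plus strand): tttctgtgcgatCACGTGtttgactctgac
Sgsh (chr11:119355522-119355551, minus strand): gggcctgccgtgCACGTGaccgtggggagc
Arsa (chr15:89477425-89477452, minus strand): tcaactcagtgtCACGTGttgtctgctc

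Mcoln1 held a second copy, 71 bases before its start. The 7 genes with the motif had no common direction: Lamp1 rose, and the log2 fold changes of the others were 0.17 in Glb1, 0.14 in Arsa, 0.01 in Naglu, −0.03 in Mcoln1, −0.15 in Sgsh and −0.43 in Gaa, none of which passed. Gm2a and Cd63 had no CACGTG in their windows, which says only that these letters are not there.

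Tfeb itself measured 4.34 and 4.66 FPKM in knockout and 4.78 and 3.91 FPKM in WT. Its knockout values lay between its WT values (log2 fold change 0.05, SE 0.20, 95% interval −0.40 to 0.49, adjusted p = 0.947 with limma). Its relative Tfe3 was at 5.17 and 5.13 FPKM in knockout and 5.93 and 3.996 FPKM in WT. The 2 other family members, Mitf and Tfec, stayed below 0.11 FPKM in each library.

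Glycosidases strip sugars from glycans, and none of the 9 passed limma's test, with an unadjusted p below 0.05 in 1. Hexa, the alpha subunit of hexosaminidase A, was the most abundant, at 74.9 and 73.5 FPKM in knockout and 79.8 and 80.3 FPKM in WT, with a log2 fold change of −0.11 (SE 0.10). Man2b1, which removes alpha-mannose, was the most even, at 32.7 to 33.9 FPKM in the 4 libraries. Gaa, which degrades glycogen, had the lowest log2 fold change of all 30 genes. It measured 10.8 and 8.18 FPKM in knockout and 13.1 and 12.9 FPKM in WT. The knockout libraries lay below both WT libraries but differed more from each other than the WT libraries did. The log2 fold change was −0.43 (SE 0.17, 95% interval −0.82 to −0.04, adjusted p = 0.266 with limma), and it was −0.61 without knockout replicate 1 and −0.25 without knockout replicate 2. Idua, which acts on heparan and dermatan sulfate, had −0.24 (SE 0.19), and the remaining glycosidases, Gusb, Glb1, Manba, Neu1 and Naglu, had values from 0.01 to 0.19.

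Sulfatases remove sulfate from glycosaminoglycans or lipids, and none of the 4 tested passed, with an unadjusted p below 0.05 in 1. Galns, which acts on keratan and chondroitin sulfate, measured 18.8 and 20.2 FPKM in knockout and 25.3 and 24.2 FPKM in WT. Both knockout libraries lay below both WT libraries. The log2 fold change was −0.33 (SE 0.13, 95% interval −0.62 to −0.04, adjusted p = 0.251 with limma). Galns overlaps other genes, among them Trappc2l, and the library kit does not mark strand, so reads in a shared stretch cannot be told apart. Arsb and Sgsh, which act on dermatan and heparan sulfate, had log2 fold changes of −0.13 (SE 0.12) and −0.15 (SE 0.18), and Arsa, which acts on sulfatide, 0.14 (SE 0.21).

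Among the genes of lipid breakdown, none of the 6 passed, and Gm2a had the highest log2 fold change of all 30. Gm2a encodes the activator that presents the ganglioside GM2 to hexosaminidase A. The gene (Entrez 14667) lies on chromosome 11, from 55097985 to 55113029. It measured 9.66 and 7.92 FPKM in knockout and 4.89 and 5.37 FPKM in WT. Both knockout libraries lay above both WT libraries, and knockout replicate 1 was the highest. The log2 fold change was 0.67 (SE 0.19, 95% interval 0.25 to 1.09, adjusted p = 0.0949 with limma), and none of 12 alternatives gave a call (0.44 to 0.80, adjusted p from 0.0709 to 0.415). Relative to its enzyme partner Hexa, Gm2a was at 0.129 and 0.108 of the Hexa level in knockout and at 0.0613 and 0.0669 in WT.

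Psap, the precursor of the saposin activators, measured 85.1 and 84.1 FPKM in knockout and 72.0 and 83.5 FPKM in WT. The difference was 0.12 on the log2 scale (SE 0.11) and did not pass (limma's adjusted p = 0.631). WT replicate 1 was the low library, and the other 3 lay within 83.5 to 85.1 FPKM. Npc2, the soluble partner of Npc1, had 0.07 (SE 0.10). Asah1, which cleaves ceramide, had 0.15 (SE 0.16), Lipa, which cleaves cholesteryl esters, 0.02 (SE 0.13), and Ppt1, which removes palmitate from proteins, −0.07 (SE 0.10). Tpp1, a peptidase, was at 31.95 and 44.7 FPKM in knockout and 37.9 and 40.3 FPKM in WT, so its knockout replicates lay on either side of WT. Grn, which encodes progranulin, was at 42.4 to 44.0 FPKM in the 4 libraries.

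**Figure D2:**
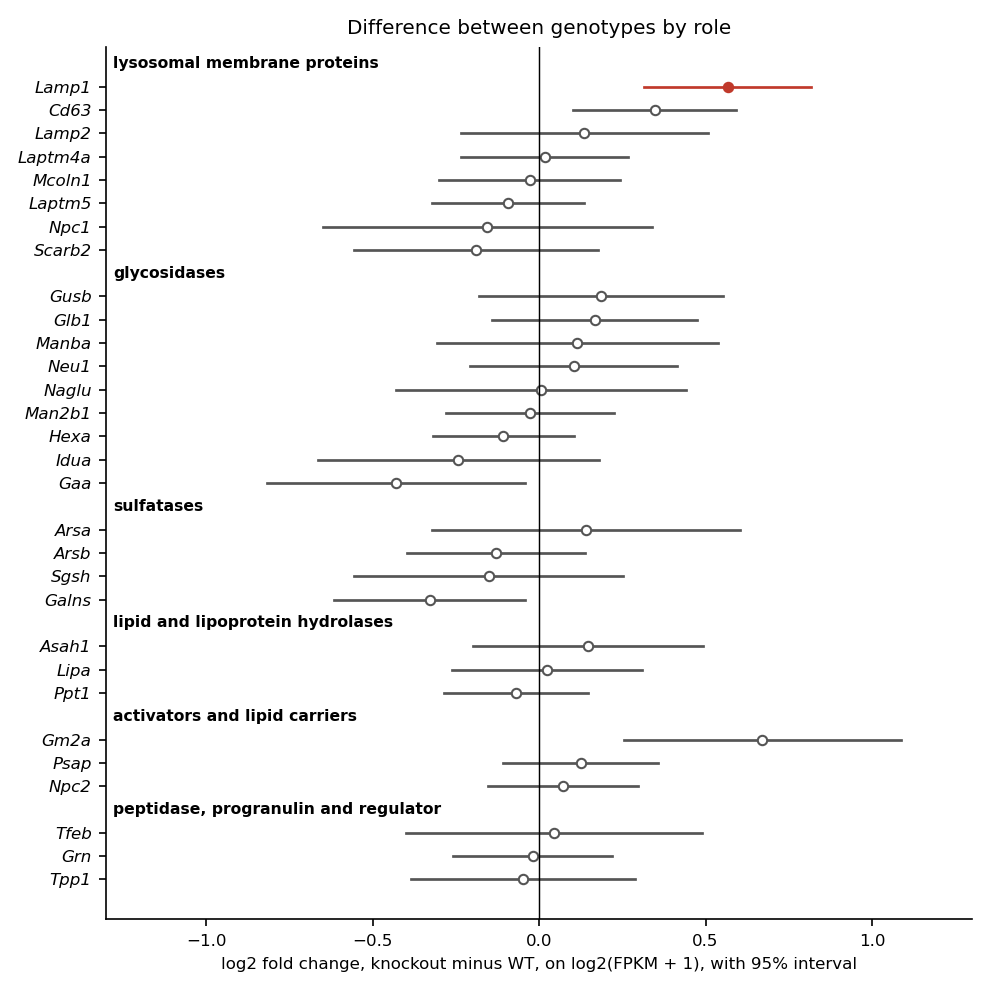
Log2 fold change (knockout minus WT, on log2(FPKM + 1)) with its 95% interval for the 30 genes tested, grouped by role; the filled point passed limma's test. Lamp1 passed, and the intervals of Gm2a, Cd63, Galns and Gaa exclude 0 before adjustment.

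Before adjustment over genes, 5 of the 30 had p below 0.05: Lamp1, Gm2a and Cd63, higher in knockout, and Galns and Gaa, lower. That is a share of 16.7%, beside 15.5% over all genes. The 4 values did not overlap between the genotypes in 15 of the 30 genes, 7 with knockout above and 8 with knockout below, beside 46.0% of all genes (24.3% above and 21.7% below). The share among lysosomal genes is thus near the background. In 21 of the 30 (70.0%) a pair of replicates differed by more than the group means did, beside 67.4% of all genes. The median difference between replicates was 0.11 in knockout and 0.12 in WT on the log2(FPKM + 1) scale, about the size of the median group difference of 0.13. Of the 29 genes that did not pass, 17 had a 95% interval within −0.5 to 0.5 and 28 within −1 to 1. The exception was Gm2a, with an upper bound of 1.09. Leaving out 1 library at a time moved the log2 fold change by over 1.5 times or changed its sign in 24 of the 30, and the other 6 were Lamp1, Cd63, Hexa, Gusb, Galns and Gm2a.

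As a sum, the lysosomal genes made up 0.372% and 0.327% of all FPKM in knockout and 0.354% in each WT library. Without Laptm5 the sums were 876 and 895 FPKM in knockout and 834 and 853 FPKM in WT. Markers of several other cell types were summed in the same libraries. The 14 macrophage markers summed to 631 and 934 FPKM in knockout and 237 and 221 FPKM in WT, and 7 of the 10 tested passed as higher, among them C1qa, C1qb, C1qc and Lyz2. Lyz2 alone gave 527 and 771 FPKM of the knockout sums and 213 and 193 FPKM of the WT sums. Markers of resident liver macrophages did not all go the same way. Clec4f, Vsig4 and Cd5l overlapped between the genotypes and did not pass. Their log2 fold changes were 0.98 (SE 0.42), 0.85 (SE 0.39) and −0.04 (SE 0.29). Marco, below 1 FPKM in each library, was lower in both knockout libraries. Timd4 and Cd163, too low to be tested, were higher in both. Timd4 was at 0.234 and 1.93 FPKM in knockout and 0 and 0.101 FPKM in WT. Cd163 was at 0.135 and 0.242 FPKM in knockout and 0.0282 and 0 FPKM in WT. The 11 markers of conventional NK cells summed to 275 and 586 FPKM in knockout and 94.6 and 90.8 FPKM in WT, with 8 of 10 tested higher. The 7 erythroid markers summed to 12483 and 14026 FPKM in knockout and 24710 and 26810 FPKM in WT, and 7 of 7 were lower. The 8 neutrophil markers summed to 26.9 and 48.4 FPKM in knockout and 18.9 and 8.28 FPKM in WT, and 2 of 4 tested were higher. The T cell markers summed to 2108 and 2133 FPKM in knockout and 2353 and 2329 FPKM in WT. Cd3g alone gave 1983 and 1950 FPKM of the knockout sums and 2249 and 2238 FPKM of the WT sums. Their directions were mixed, with Cd3g and Cd8b1 lower in both knockout libraries and Cd4 overlapping. Cd3d was higher in both, at 102 and 159 FPKM in knockout and 84.8 and 76.9 FPKM in WT. So was Cd3e, at 18.3 and 20.3 FPKM in knockout and 13.3 and 10.1 FPKM in WT. By limma 0 passed of 4 B cell, 5 T cell, 7 hepatocyte, 1 dendritic cell and 1 endothelial marker tested, with an unadjusted p below 0.05 in 2, 3, 3, 0 and 0. Macrophages also express lysosomal genes. Lamp1 was highest in knockout replicate 2, as were the sums of macrophage, conventional NK cell, neutrophil and hepatocyte markers. Gm2a was highest in knockout replicate 1. The part of other cells in either gene was not tested. In such bulk samples more cells of a type and more RNA per cell cannot be told apart.

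**Figure D3:**
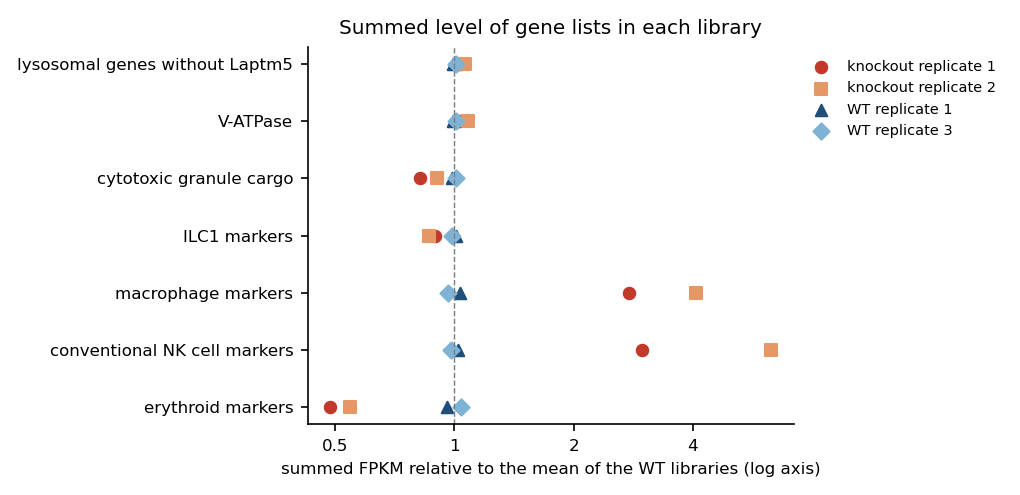
Summed FPKM of gene lists in each library, relative to the mean of the WT libraries (log axis). The lysosomal genes without Laptm5 lie at 0.989 to 1.06, whereas macrophage markers reach 2.76 and 4.08 and conventional NK cell markers 2.97 and 6.32 in the knockout libraries.

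The rest of the pathway was read from lists of related genes. The V-ATPase had 16 tested subunits and accessory proteins, of which 0 passed limma's test and 1 had an unadjusted p below 0.05. Its median log2 fold change was 0.06, with Atp6v0d1 (0.42, SE 0.14, adjusted p = 0.165), Atp6v1f (0.15, SE 0.08), Atp6v1b2 (0.22, SE 0.12) and Atp6v0b (0.17, SE 0.10) having the smallest p. Of 10 tested genes of mannose 6-phosphate sorting, 0 passed and 0 had an unadjusted p below 0.05 (median −0.0048), and the receptor M6pr was even, at 172 to 176 FPKM in the 4 libraries. Gga3, a sorting adaptor, led that list by p with −0.33 (SE 0.20). Of 10 tested genes among MiT factors and the lysosomal control of mTORC1, 0 passed and 1 had an unadjusted p below 0.05 (median 0.07), led by Lamtor3 of the Ragulator complex (0.24, SE 0.10, adjusted p = 0.268).

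Among 22 tested hydrolases outside the 31 genes, Lgmn alone passed, and 2 passed without knockout replicate 1 or without WT replicate 3. Lgmn encodes legumain, an asparaginyl endopeptidase, and measured 14.4 and 29.1 FPKM in knockout and 2.32 and 2.44 FPKM in WT. It was higher by 2.67 on the log2 scale (SE 0.27, limma's adjusted p = 5.43e-04). The remaining 21 had log2 fold changes from −0.22 to 0.92, the highest in the carboxypeptidase gene Scpep1 (SE 0.25, adjusted p = 0.0868), followed by Gla (0.61, SE 0.23) and Fuca1 (0.30, SE 0.12). Among 21 tested membrane proteins outside the 31 genes, Cd68 passed, a lysosomal glycoprotein abundant in macrophages, at 23.4 and 35.2 FPKM in knockout and 10.8 and 5.93 FPKM in WT (1.71, SE 0.25, adjusted p = 0.00478). The median of that list was −0.15. In both knockout libraries 10 of the 21 lay below WT and 3 above, beside 21.7% and 24.3% of all genes. Other lists leaned the other way: of the 22 hydrolases 9 lay above and 1 below. Of the 16 V-ATPase genes 7 lay above and 2 below. Among the 10 membrane proteins below WT, Clcn7, the chloride-proton exchanger of the lysosome, led by p (−0.61, SE 0.18, limma's adjusted p = 0.111). Spns1 (−0.47, SE 0.19) and Slc38a9 (−0.55, SE 0.23) came next, and none of the 10 passed.

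Of 10 tested cathepsins, the best known lysosomal proteases, 3 were higher and 1 lower, a share of 40.0% beside 3.33% of all genes. By limma 7 of the 10 had an unadjusted p below 0.05, beside 15.5% of all genes. Without knockout replicate 2 or WT replicate 3, 1 was higher, and without knockout replicate 1, 2 were lower. Ctss rose (2.10, SE 0.19), as did Ctsh (0.95, SE 0.20, adjusted p = 0.0264) and Ctsb (0.44, SE 0.10, adjusted p = 0.0435), and Ctse fell (−2.44, SE 0.12). Ctsw, the most abundant of the list, measured 1598 and 1370 FPKM in knockout and 1871 and 1751 FPKM in WT. It did not pass (−0.29, SE 0.09, limma's adjusted p = 0.134). Ctsd, the most abundant aspartic protease of the list, measured 1477 and 1368 FPKM in knockout and 1667 and 1569 FPKM in WT. It did not pass either (−0.19, SE 0.08, limma's adjusted p = 0.293). The 12 cathepsins summed to 0.928 and 0.877 of the WT mean in knockout. Ctss and Lgmn were highest in knockout replicate 2, as were the sums of macrophage, conventional NK cell, neutrophil and hepatocyte markers. The part of such cells was not tested. Of 9 tested genes of cytotoxic granule cargo, 3 fell and 0 rose, a share of 33.3% beside 3.33% of all genes. Those that fell were Gzmc (−1.53, SE 0.11), Cst7 (−0.68, SE 0.10) and Gzmb (−0.50, SE 0.08). Gzma did not pass, at −0.29 (SE 0.09, limma's adjusted p = 0.112). In all, 6 of the 9 had a negative log2 fold change and 3 a positive one. By limma 4 had an unadjusted p below 0.05, beside 15.5% of all genes. The list, in which Nkg7 was counted as cargo, summed to 3.78% and 4.08% of all FPKM in knockout and 4.53% and 4.64% in WT. With Nkg7 included, that was at least 10 times the share of the 31 lysosomal genes in each library. Nkg7 gave 6222 and 7180 FPKM of 19331 and 21368 FPKM in knockout. In WT it gave 6032 and 6502 FPKM of 23268 and 23964 FPKM.

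**Figure D4:**
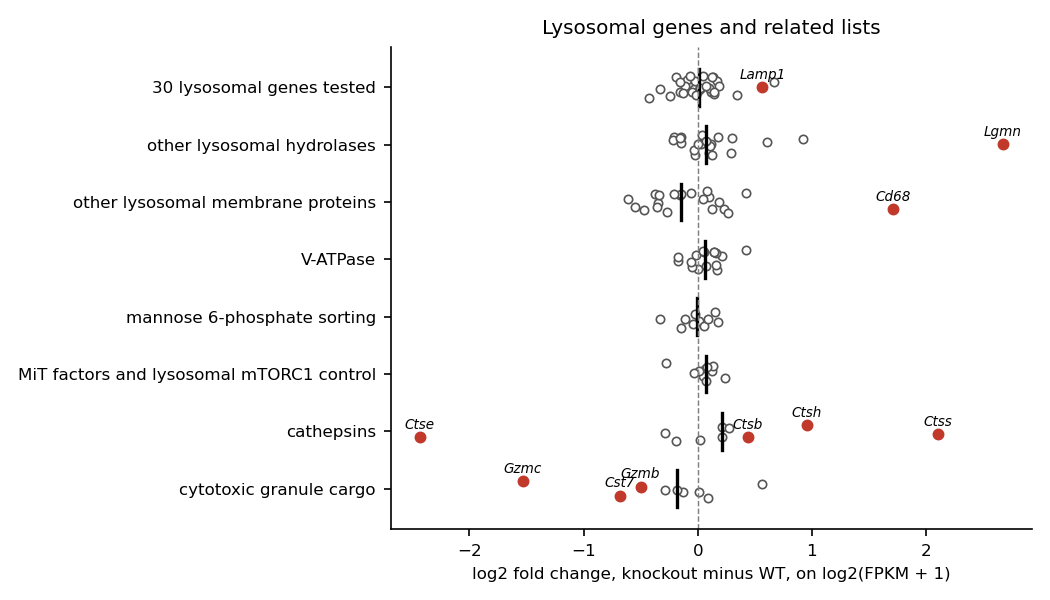
Log2 fold change of each tested gene in the 30 lysosomal genes and 7 related lists; filled points passed limma's test, and the black bar is the list's median. The medians of the lysosomal genes, V-ATPase, sorting and mTORC1 lists lie between −0.0048 and 0.07, with Lamp1 their 1 gene past the test, whereas Ctse, Ctss, Lgmn, Cd68 and Gzmc lie far from 0.

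The deposited pathway annotation gave a wider view of the organelle. It assigns 127 genes to the lysosome pathway, 29 of the 31 genes included, and this grouping was chosen after the values of the lists were seen. Of its 106 tested genes, 7 were higher and 1 was lower in knockout, a share of 7.55% beside 3.33% over all genes. Those higher were Lgmn, Ctss, Cd68, Slc11a1, Ctsh, Lamp1 and Ctsb, and Ctse was lower. Slc11a1, a metal ion transporter of phagocyte lysosomes, measured 2.54 and 2.53 FPKM in knockout and 0.207 and 0.435 FPKM in WT. It was higher by 1.42 on the log2 scale (SE 0.23, limma's adjusted p = 0.00693). The median log2 fold change of the 106 genes was 0.02. Without the mean-variance trend 3 were higher, without knockout replicate 2, 4 were higher, and without knockout replicate 1, 3 were lower.

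**Figure D5:**
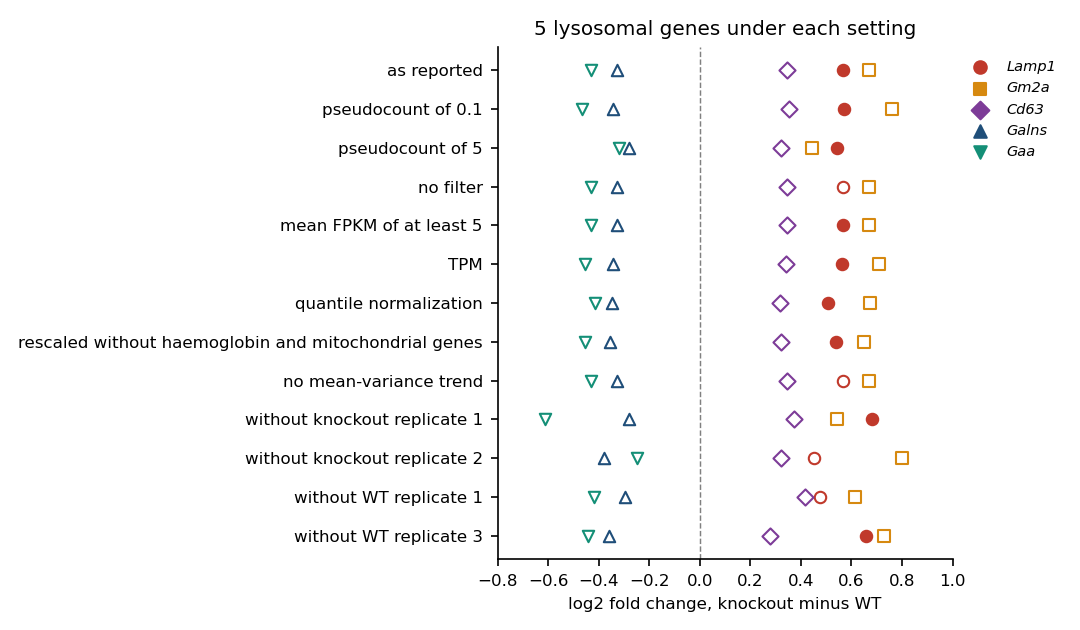
Log2 fold change of the 5 lysosomal genes with unadjusted p below 0.05, as reported and under 12 alternatives; filled points passed at an adjusted p below 0.05. Lamp1 passed in 8 of the 12, and Gm2a, Cd63, Galns and Gaa in 0, while each of the 5 kept its direction.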

How the data were processed

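Per the labels' protocols, RNA was extracted with TRIzol, amplified as full-length cDNA by a kit meant for single cells, and made into libraries with a transposase kit. The submitters' processing notes name fastp, HISAT2, HTSeq, DESeq2, R 3.2.0 and build mm10, with no role or order. The authors deposited FPKM values per gene, with no scaling between libraries stated. Depth was inferred from low values of genes with a single exon. Between 74.1% and 78.7% of them lay within 0.05 of a whole read.

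Genes whose mean reached 1 FPKM were tested as log2(FPKM + 1) with limma 3.58.1 in R 4.3.3 (two-sided, mean-variance trend, no covariate). The method was first tried on data simulated from its own fitted model, which cannot show how it behaves on these FPKM values. Limma moves each gene's spread toward that of tested genes of similar level, so an SE does not rest on that gene's own values alone. Fold changes on this scale understate those of low genes. With 2 libraries a group the smallest exact permutation p is 0.333. Lists were described by counts and medians, with no set test.

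The 31 genes and the 23 lists, 6 of them the roles of the 31 genes, were chosen with earlier results of these data known. Named in full are genes past the test, Lamp1, Lamp2, Cd63, Tfeb and the 3 most abundant, and of each related list up to 4 genes with the smallest p; others were chosen after their values were seen. The 12 alternatives are given at the end. Of the 31 genes, 14 overlap another RefSeq gene. How reads of such stretches were counted is not stated, and it could affect the values.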

Additional observations from a re-analysis of the deposited data

How the results depend on the processing

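No paired analysis was possible because the groups share only replicate number 1. Of 357 alternative values of the 30 lysosomal genes, 335 kept direction and call, 4 lost the call (all Lamp1) and 18 changed sign. The sign changes were in 9 genes, each with a reported log2 fold change of at most 0.11 in size. Over libraries left out, Mcoln1 ranged from −0.12 to 0.061, Laptm5 from −0.26 to 0.071, Laptm4a from −0.010 to 0.043, Naglu from −0.13 to 0.14, Manba from −0.11 to 0.34, Lipa from −0.081 to 0.13, Tpp1 from −0.28 to 0.19, Grn from −0.040 to 0.0030 and Tfeb from −0.073 to 0.16. Another 15 genes kept their sign but moved by over 1.5 times, among them Scarb2 (−0.33 to −0.053), Npc1 (−0.29 to −0.024), Arsa (0.011 to 0.27), Asah1 (0.0040 to 0.29), Psap (0.019 to 0.23), Glb1 (0.059 to 0.28), Neu1 (0.025 to 0.18), Arsb (−0.23 to −0.033), Sgsh (−0.26 to −0.044) and Gaa (−0.61 to −0.25). With quantile normalization Laptm4a (−0.0049), Naglu (−0.0021) and Lipa (−0.013) changed sign, with rescaling without haemoglobin and mitochondrial genes Laptm4a (−0.0089), Naglu (−0.017) and Lipa (−0.0021), and with TPM Naglu (−0.0014).

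The count of lysosomal genes called became 0 with no filter and without the trend, and ranged from 0 to 1 over libraries left out, as given above. Limma called 0 genes in all with no filter (1898 of 18155 had an unadjusted p below 0.05), so every list then had 0. Against 227 genes higher and 89 lower as reported, 151 were higher with a mean of at least 5 FPKM, 57 were higher and 13 lower without the trend, and over libraries left out 170 to 351 were higher (the most without knockout replicate 1) and 56 to 223 lower (without WT replicate 1 and knockout replicate 1). Without the trend, 0 of the other membrane proteins and 1 cathepsin were higher, and 1 granule cargo gene was lower. Over libraries left out, other hydrolases had 1 to 2 higher, cathepsins 1 to 3 higher and 1 to 2 lower, and granule cargo 2 to 4 lower. The median of the lysosomal genes stayed within −0.019 to 0.017 in the 12 alternatives. The causes were not tested. With 2 libraries a group, precision is limited to the 95% intervals given.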
